A study of Mus musculus with 18 samples.

Results

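The genes described here mark B cells and the lymphoid follicles they form in the gut wall. They are 30 genes, matched by their gene names on the array among 37074 gene names in all, and each is represented by its brightest probe. Of these, 28 were measured, meaning that some group showed them well above background in 5 or all of its 6 mice, and Blk and Cd40 did not. The arrays held RNA from cells shaken off the mouse ileum in a chelating buffer, 1 array per mouse. There were 18 mice in 3 groups of 6: iPGC1afl/fl mice on chow (CHOW), iPGC1afl/fl mice on a fat-rich diet (HFD) and iPGC1a-/- mice on the same HFD. The HFD gave 42% of its energy as fat, with milk fat and 0.2% cholesterol, and was fed for 8 weeks from 8 weeks of age. All mice carried the floxed Ppargc1a allele on a C57BL6/J background, and the iPGC1a-/- mice also carried Cre under the Vil1 promoter, which acts in intestinal epithelium and not in B cells. Knockout mice on chow are not analysed here. Littermates and cohorts are not marked in the labels, so p-values measure the spread between these mice only.

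B cells sense antigen through a surface immunoglobulin held with the signalling chains CD79A and CD79B. Co-receptors tune that signal, the kinases BLK and BTK and the adaptors BLNK and BANK1 carry it inwards, and the factors EBF1 and PAX5 set the B cell programme. In the ileum B cells gather in Peyer's patches and isolated lymphoid follicles, which depend on lymphotoxin for their formation, while BAFF and its receptor keep mature B cells alive. The epithelium over a follicle contains M cells, which carry antigen from the lumen to the cells below.

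Depth in an array is set by signal over background: between 56.3% and 62.3% of the probes stood well above background on each array and no spot was saturated. The epithelial markers were all measured (12 of 12), as were all 16 T cell and intraepithelial lymphocyte markers. Levels are log2 normalized signal, on which a difference of 1 is a doubling or halving, and the level of 1 probe cannot be set against that of another. The targeted gene Ppargc1a was not lower on the arrays labelled iPGC1a-/-: its brighter probe had a mean of 11.67 ± 0.26 (SD, n = 6) there and 11.38 ± 0.07 on the iPGC1afl/fl HFD arrays. The position of its probes relative to the deleted exons was not determined, so they do not check the deletion, and the genotype comparison rests on the labels.

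Many of the B cell genes were lower on HFD, among them the receptor chain Cd79b, the IgM receptor Fcmr, the CD20 gene Ms4a1 and the lymphotoxin subunit Ltb. A gene was called when its brightest probe had an adjusted p of 0.05 or lower (limma, Benjamini-Hochberg over 32726 probes) and a fold change above 1.5. On HFD, 15 of the 28 measured genes fell and 0 rose, where 5.20% of all 21542 gene names fell and 3.22% rose. The only gene of the group that was higher at an unadjusted p under 0.05 was Fcrl5 (3.57% of the 28, against 16.4% of all gene names). The median log2 fold change over the 28 genes was -0.70, against 0.00 over all gene names, and 24 of the 28 lay below 0. By adjusted p alone 18 were lower, where 14.2% of all gene names were. With signals scaled to each array's 75th percentile in place of smooth quantile normalization, 938 gene names fell and 884 rose in place of 1121 and 694, while 14 of the 28 genes fell and 1, Fcrl5, rose. Of the 28, 5 passed the filter on dim signals through the CHOW arrays alone (Fcer2a, Fcrla, Fcrl1, Bank1 and Lta), so their difference had a fixed direction once they passed and the count over genes that passed is a description. With no filter, all 30 genes were tested and 15 fell, where 3.06% of all 37074 gene names fell. Fewer B cells and less RNA per B cell cannot be told apart in such bulk samples.

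**Figure D1:**
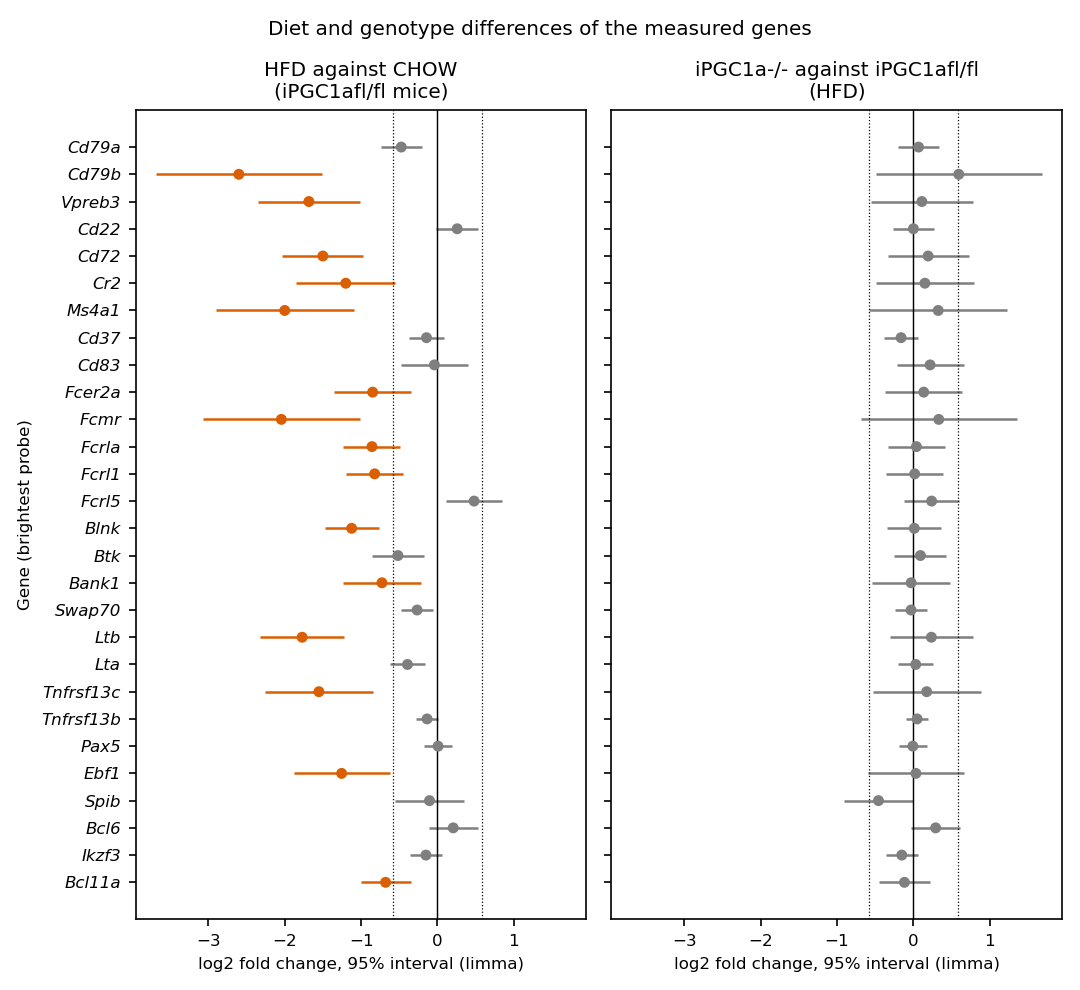
The plot gives the log2 fold change of each of the 28 measured genes with its 95% interval (limma, n = 6 mice a group), HFD against CHOW on the left and iPGC1a-/- against iPGC1afl/fl on the right. Orange marks called genes, dotted lines mark a fold change of 1.5 in either direction, and the 15 orange genes all lie to the left of 0 in the diet panel while the genotype panel holds none.

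Among the B cell receptor and its co-receptors, 4 of 6 fell. Cd79b, one of the receptor's signalling chains, ranged from 8.04 over a median of 9.58 to 10.83 on CHOW, from 5.06 over 6.80 to 9.02 on HFD and from 6.82 over 7.35 to 8.46 in iPGC1a-/- mice. Its mean fell 6.07-fold on HFD (log2 fold change -2.60 ± 0.52 SE, adjusted p = 0.0011 by limma, exact permutation p = 0.0043). A single HFD mouse lay inside the CHOW range, and the other 5 lay below every CHOW mouse. Cd79a, the partner chain, moved much less: it ranged from 5.62 over 5.96 to 6.22 on CHOW and from 5.16 over 5.43 to 5.88 on HFD. Its log2 fold change of -0.47 ± 0.13 SE had an adjusted p of 0.0112 by limma but a fold change of 1.39, below the limit for a call. The Cd79a probe is shown because its coordinates span more than its length (chr7:25684357-25684614, plus strand, mm9, a stretch of 258 bases read by 60). By these coordinates its bases do not lie in genomic DNA as 1 run, and whether the gap is an intron was not determined.

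Cd79a probe: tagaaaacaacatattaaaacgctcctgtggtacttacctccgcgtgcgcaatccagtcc

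Vpreb3, a relative of the surrogate light chain of B cell precursors, ran from 6.37 over 7.31 to 8.52 on CHOW and from 5.08 over 5.47 to 6.86 on HFD (log2 fold change -1.68 ± 0.32 SE, adjusted p = 0.000703 by limma). Cd72, an inhibitory co-receptor, ran from 7.26 over 7.63 to 8.89 on CHOW and from 5.86 over 6.20 to 7.29 on HFD (-1.50 ± 0.25 SE, adjusted p = 0.00023 by limma). Cr2, the complement receptor of B cells and follicular dendritic cells, ran from 6.54 over 7.46 to 8.36 on CHOW and from 5.56 over 5.92 to 7.46 on HFD (-1.20 ± 0.31 SE, adjusted p = 0.00799 by limma). In each of these 3 genes the highest HFD mouse overlapped the lowest CHOW mouse. Cd22, another inhibitory co-receptor, went the other way at its brightest probe without passing the test: it ran from 8.84 over 8.96 to 9.35 on CHOW and from 8.95 over 9.32 to 9.60 on HFD (0.26 ± 0.13 SE, adjusted p = 0.163 by limma).

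Of 3 other surface molecules measured, only Ms4a1 fell. Ms4a1, which encodes the B cell antigen CD20, ran from 6.28 over 7.56 to 9.08 on CHOW, from 4.74 over 5.32 to 7.28 on HFD and from 5.47 over 5.75 to 6.997 in iPGC1a-/- mice. It fell 4.00-fold on HFD (log2 fold change -2.001 ± 0.43 SE, adjusted p = 0.0022 by limma, exact permutation p = 0.00866), and its probe was well above background on 3 of the 6 HFD arrays. Cd37, a tetraspanin of B cells and other leukocytes, stayed between 12.19 and 12.64 on CHOW (median 12.42) and between 11.95 and 12.55 on HFD (median 12.27). Its log2 fold change of -0.14 ± 0.11 SE did not pass (adjusted p = 0.367 by limma), nor did that of Cd83, an activation antigen, at -0.04 ± 0.21 SE.

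**Figure D2:**
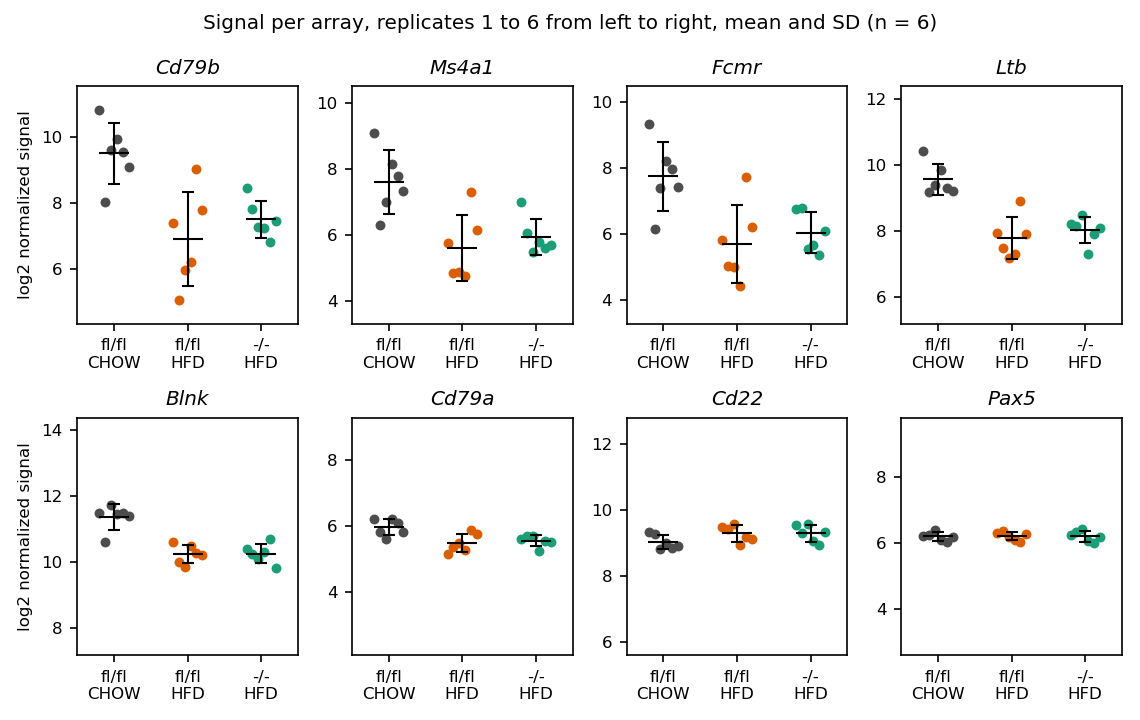
Points give the log2 normalized signal of 8 genes on each of 18 arrays, replicates 1 to 6 of a group from left to right, with the mean and SD (n = 6); every panel spans the same height on the log2 scale. Cd79b, Ms4a1, Fcmr, Ltb and Blnk are lower on HFD, Ltb and Blnk with no overlap between CHOW and HFD mice, while Cd22 and Pax5 at their brightest probes show no such step.

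The Fc receptors and their relatives fell at 4 of 5 genes. Of these, Fcer2a, Fcrla and Fcrl1 passed the filter on dim signals through CHOW alone, so their direction was fixed and this count is a description. Fcmr, the receptor for IgM, ran from 6.15 over 7.69 to 9.33 on CHOW and from 4.43 over 5.41 to 7.72 on HFD. Its 4.13-fold drop (log2 fold change -2.04 ± 0.49 SE, adjusted p = 0.00487 by limma) went with CHOW mice that differed by up to 9.06-fold among themselves, and its probe was well above background on 3 of the 6 HFD arrays. Over 11 alternative settings its log2 fold change ran from -3.48, with Agilent's background-subtracted signal, to -1.47. Fcer2a, the low-affinity IgE receptor CD23, ran from 5.35 over 5.93 to 6.83 on CHOW and from 4.70 over 4.95 to 5.98 on HFD (-0.85 ± 0.24 SE, adjusted p = 0.0144 by limma), with 2 HFD arrays well above background. Fcrla, an intracellular Fc receptor-like protein, ran from 5.05 over 5.62 to 6.34 on CHOW and from 4.53 over 4.67 to 5.39 on HFD (-0.86 ± 0.18 SE, adjusted p = 0.00158 by limma). Fcrl1 ran from 4.99 over 5.49 to 6.26 on CHOW and from 4.40 over 4.56 to 5.21 on HFD (-0.82 ± 0.18 SE, adjusted p = 0.00223 by limma). Fcrla and Fcrl1 each stood well above background on 6 of 6 CHOW arrays and on 1 HFD array. Over 11 alternative settings their log2 fold changes ran from -2.77 to -0.48 and from -2.55 to -0.39. The part of the background in these sizes was not tested. Fcrl5 had 0.48 ± 0.17 SE at its brightest probe, with an adjusted p of 0.0514 by limma, and that probe rose under both scalings to the 75th percentile (0.61 and 0.64, adjusted p = 0.0194 and 0.0247 by limma). Its dimmer probe went the other way, at -0.43 ± 0.13 SE (adjusted p = 0.0187 by limma), a fold change of 1.35 that is below the limit for a call. That dimmer probe also passed the filter through CHOW alone.

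Inside the cell, Blnk, the linker that ties the receptor's kinases to their substrates, ran from 10.61 over 11.46 to 11.73 on CHOW, from 9.85 over 10.24 to 10.60 on HFD and from 9.81 over 10.26 to 10.68 in iPGC1a-/- mice. The CHOW and HFD mice did not overlap (log2 fold change -1.12 ± 0.17 SE, adjusted p = 6.93e-05 by limma, exact permutation p = 0.0022, the smallest that 6 against 6 mice allow). Bank1, a scaffold of receptor signalling, ran from 4.97 over 5.76 to 6.81 on CHOW and from 4.48 over 4.95 to 5.59 on HFD (-0.73 ± 0.24 SE, adjusted p = 0.0363 by limma). Bank1 was well above background on 5 CHOW arrays and on 1 HFD array. Its call was lost without HFD replicate 2, 3 or 4 (adjusted p = 0.0797, 0.0702 and 0.0726 by limma), and without any 1 of 5 CHOW arrays it no longer passed the filter on dim signals. Btk, the tyrosine kinase downstream of the receptor, had a log2 fold change of -0.52 ± 0.16 SE and an adjusted p of 0.0271 by limma but missed the limit on fold change, and Swap70 had -0.27 ± 0.10 SE. Blk, the Src-family kinase of B cells, was well above background on 0 of 18 arrays. Cd40, the receptor for T cell help, was above it on 2 CHOW arrays and on no others.

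Of the lymphotoxins and BAFF receptors, 2 of 4 fell. Ltb, the membrane-anchoring subunit of lymphotoxin, which T cells and innate lymphoid cells also make, ran from 9.17 over 9.34 to 10.41 on CHOW, from 7.16 over 7.68 to 8.91 on HFD and from 7.29 over 8.10 to 8.48 in iPGC1a-/- mice. All 6 HFD mice lay below all 6 CHOW mice (3.42-fold lower, log2 fold change -1.77 ± 0.26 SE, adjusted p = 5.99e-05 by limma, exact permutation p = 0.0022), and so did all 6 iPGC1a-/- mice. Blnk and Ltb were the 2 of 28 genes with no overlap between diets, where 5.30% of all gene names were lower with no overlap. Neither is among the 15 measured genes marked here as restricted to the B lineage, of which 0 were without overlap. The mark is a choice made here: it covers Cr2 and Fcer2a, although follicular dendritic cells also carry Cr2, and leaves out Ebf1 and Fcmr. Tnfrsf13c, the BAFF receptor, ran from 5.83 over 6.76 to 8.04 on CHOW and from 4.65 over 5.04 to 6.64 on HFD (-1.55 ± 0.34 SE, adjusted p = 0.00235 by limma), with 3 HFD arrays well above background. Lta, the soluble lymphotoxin subunit, had -0.39 ± 0.11 SE with an adjusted p of 0.0124 by limma and a fold change of 1.31, below the limit for a call. Tnfrsf13b, the receptor TACI, had -0.13 ± 0.07 SE at its brightest probe.

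Of the transcription factors, 2 of 6 fell. Ebf1, which commits precursors to the B lineage, ran from 5.60 over 6.76 to 7.78 on CHOW and from 4.92 over 5.35 to 6.40 on HFD (log2 fold change -1.25 ± 0.30 SE, adjusted p = 0.0049 by limma), with 3 HFD arrays well above background. Bcl11a, a factor needed for early lymphoid development, ran from 8.41 over 8.89 to 9.28 on CHOW and from 7.63 over 8.23 to 8.66 on HFD (-0.68 ± 0.16 SE, adjusted p = 0.00375 by limma), a call lost without HFD replicate 3 (-0.55). Pax5, the factor that maintains B cell identity, stayed between 6.03 and 6.38 on CHOW (median 6.19) and between 6.01 and 6.34 on HFD (median 6.23), a log2 fold change of 0.01 ± 0.09 SE (adjusted p = 0.953 by limma). Spib, Bcl6 and Ikzf3 did not pass, with -0.10, 0.21 and -0.15. Of the 15 measured genes marked here as restricted to the B lineage 10 fell, and of the other 13 genes 5 did. Without the genes that passed the filter through CHOW alone these counts were 6 of 11 and 5 of 12, and the difference was not tested.

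Several genes were read by more than 1 probe, and the probes often differed. Of 13 such genes, 4 gave the same call at every kept probe (Cd72, Fcrl5, Swap70 and Bcl6), although the 2 Fcrl5 probes, neither called, had opposite signs. In 4 genes the brightest probe was not called while another probe was called lower. Counted at any probe, 19 of the 28 genes fell, where 5.58% of all gene names did. Cd37 had 2 dimmer probes at -1.10 and -1.05 (adjusted p = 0.0005 and 0.0002 by limma) beside the brightest at -0.14. Ikzf3, the factor Aiolos, had probes at -1.48, -1.19 and -0.62 that were called beside the brightest at -0.15. Cd22 had a second probe at -0.66 (adjusted p = 0.0094 by limma) against 0.26, and Tnfrsf13b a second probe at -1.01 (adjusted p = 0.0011 by limma) against -0.13. That Cd22 probe was well above background on 6 CHOW, 1 HFD and 3 iPGC1a-/- arrays, and the Ikzf3 probe at -0.62 on 6, 2 and 2. Both passed the filter through CHOW alone, so their direction was fixed, and Cd22 entered the count of 19 by that probe only. The reverse held in 5 genes: beside a called brightest probe, the second probe gave 0.01 for Ms4a1, -0.03 for Tnfrsf13c, -0.04 for Fcer2a and -0.43 for Cr2, and the 3 other Bcl11a probes gave -0.23 to -0.44. Over all 49 kept probes of the 28 genes, 23 were called lower and 0 higher. The 23 include probes kept through CHOW alone, and the share over all 32726 kept probes was not computed, so this count is a description.

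The first 30 of the 60 bases of these probes show what was read, with positions on mm9. The brightest Cd22 probe carries a run of repeated ccaa and shares a word of 20 bases with 2 probes of other genes, and the brightest Ikzf3 probe shares one with 1. Neither their dimmer probes nor the Cd37 and Ms4a1 probes share one. Where these probes lie in the transcript (exon, intron or UTR) was not determined, as no annotation of that build was used here.
Cd22, brightest, not called, chr7:31651249-31651308, minus strand: gaaaaatgaaaaaccaaccaaccaaccaaa
Cd22, second, lower, chr7:31651590-31651649, minus strand: ggaggatgagagcatccattactcagagct
Cd37, brightest, not called, chr7:52493104-52493163, minus strand: ctactgagtccgaggccagcctgagttacc
Cd37, second, lower, chr7:52489002-52489061, minus strand: tctgtctgccacctcccacatgacacctca
Ikzf3, brightest, not called, chr11:98374062-98374121, minus strand: aagaatttaaaatactcatatggcagaggc
Ikzf3, second, lower, chr11:98326276-98326335, minus strand: agagccaggaatcccaaattcccggtatgt
Ms4a1, brightest, lower, chr19:11325409-11325468, minus strand: cagaaatgtaatgggttcccagatctcaaa
Ms4a1, second, not called, chr19:11324334-11324393, minus strand: ccgctatgcctggagaggatggggaggtgg

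**Figure D3:**
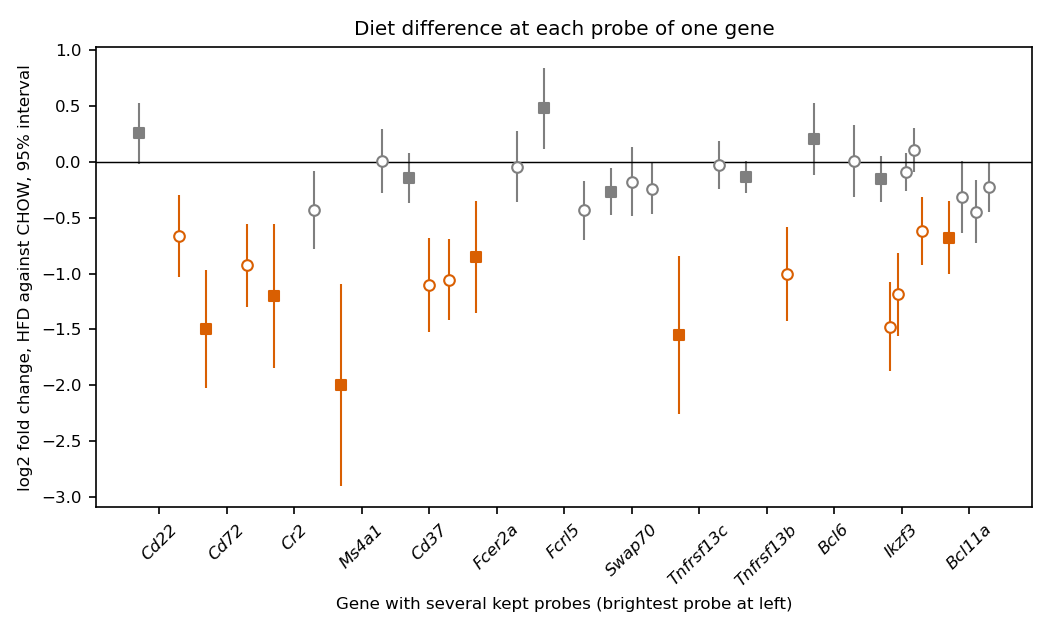
Each symbol is the log2 fold change of 1 kept probe, HFD against CHOW in iPGC1afl/fl mice, with its 95% interval (limma, n = 6 a group), for the 13 genes with several kept probes. Squares mark the brightest probe and orange marks called probes; in Cd22, Cd37, Tnfrsf13b and Ikzf3 an orange circle sits under a grey square, and in Ms4a1 and Tnfrsf13c an orange square sits beside a grey circle near 0.

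Within a group the same mice stood high or low across most of the genes that fell. Of the 15 genes that fell, CHOW replicate 1 was the highest of its group in 14 and CHOW replicate 2 the lowest in 13. HFD replicate 5 was the highest of its group in 13 of the 15, and iPGC1a-/- replicate 1 in 11. The CHOW mice differed by 1.82- to 9.06-fold within these genes, beside diet differences of 1.60- to 6.07-fold. Without HFD replicate 5, 11 genes had no overlap between diets in place of 2, where 6.88% of all gene names were then lower without overlap. Without CHOW replicate 2, 5 of 27 had no overlap, where 7.08% of all gene names did. These arrays were picked for their values, and leaving out any 1 array leaves fewer mice to overlap. The median of the 28 genes on each array, as a deviation from the CHOW mean, ran from -0.47 over -0.04 to 0.72 on CHOW, from -0.89 over -0.80 to -0.18 on HFD and from -0.80 over -0.70 to -0.38 in iPGC1a-/- mice. Each of the 3 slides held 2 arrays of every group, and within each slide all 15 genes were lower on HFD (log2 differences of -3.18 to -0.45). The 15 genes were picked as lower on these same arrays, so the shared sign is largely built in and is a description.

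**Figure D4:**
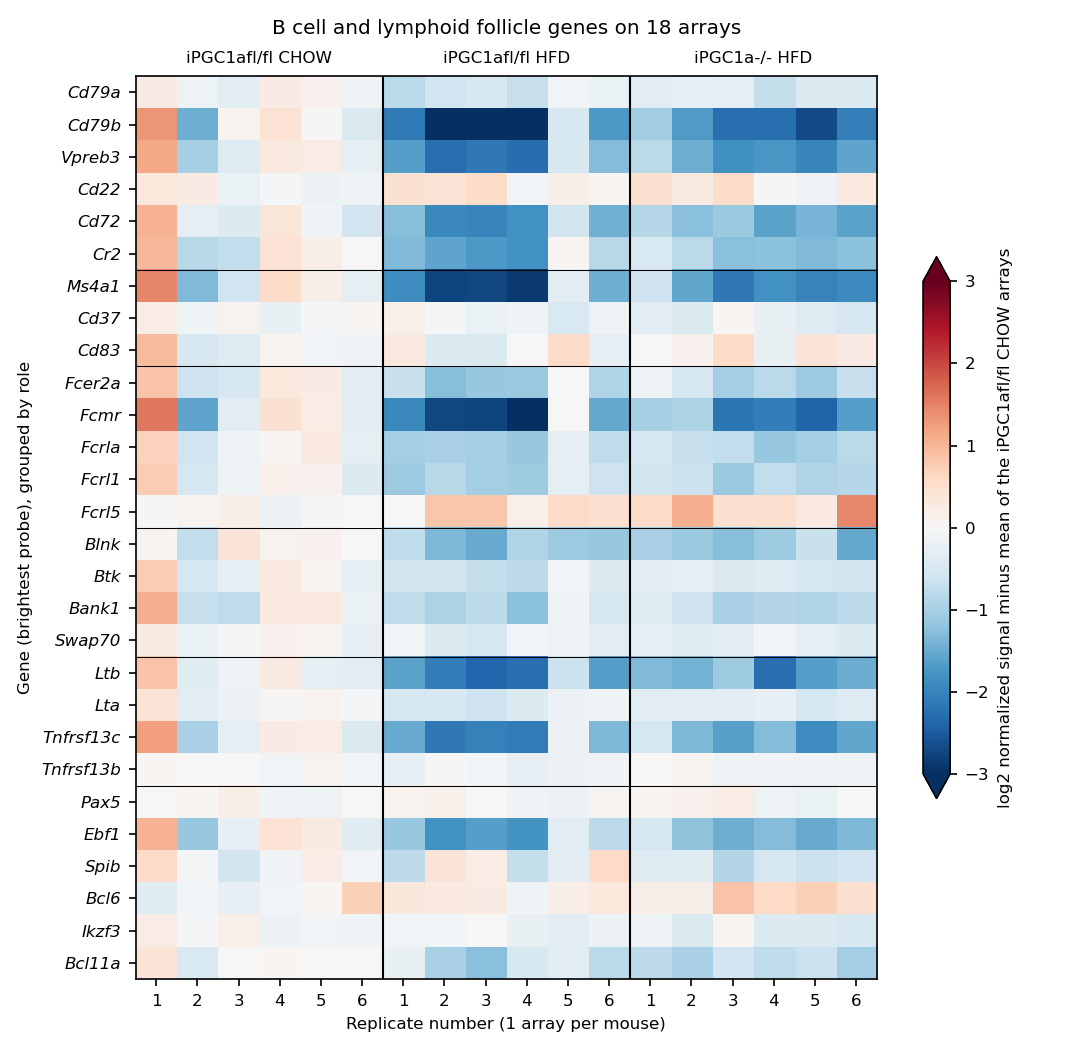
Each row is 1 of the 28 measured genes at its brightest probe and each column 1 mouse; colour gives log2 normalized signal minus the mean of the 6 CHOW arrays, with values beyond 3 drawn in the end colours. The columns of CHOW replicate 1 and HFD replicate 5 are redder than their neighbours over most of the rows that turn blue on HFD.

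No B cell gene passed the test between genotypes. Between the arrays labelled iPGC1a-/- and the iPGC1afl/fl HFD arrays, 0 of 28 genes were called by limma, where 0.135% of all gene names were called in either direction. At an unadjusted p under 0.05 there was 1 gene, Spib, against 9.29% of all gene names, and no gene was without overlap, where 0.320% of all were higher and 0.641% lower without overlap. The log2 fold changes ran from -0.46 (Spib, 95% interval -0.90 to -0.01, adjusted p = 0.516 by limma) to 0.60 (Cd79b, -0.49 to 1.68, adjusted p = 0.735 by limma), with a median of 0.06, 21 genes above 0 and 7 below. Spib, the Ets factor used by B cells and by M cells, ran from 7.16 over 7.89 to 8.55 in iPGC1afl/fl mice and from 7.08 over 7.41 to 7.58 in iPGC1a-/- mice. The 95% interval lay within a fold change of 1.5 in either direction for 14 of the 28 genes and reached past it for the other 14, which include 10 of the 15 that fell with diet. For Ms4a1, for example, the interval ran from -0.58 to 1.23. Both comparisons use the same iPGC1afl/fl HFD arrays.

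Other genes of the B cell receptor pathway and of B cell homing were lower on HFD at 12 of 27 measured genes, with 0 higher. Among the 12, Cxcr5 passed the filter on dim signals through CHOW alone, so its direction was fixed and the count is a description. Ccr6, the receptor for CCL20 that leads B cells towards the follicle epithelium, had a log2 fold change of -2.01 (adjusted p = 0.00184 by limma). Pou2af1, a B cell coactivator, had -1.62 and Ccr7, the homing receptor, -1.37. Of 8 germinal centre genes measured, 0 were called at a fold change above 1.5, and 3 were lower by adjusted p alone (limma). Among these 3, S1pr2 and Mybl1 passed the filter through CHOW alone, so their direction was fixed. Of 6 stromal and lymphoid-organising genes measured, Icam1 fell (-1.23) and the other 5 did not pass. The list of follicle-associated epithelium and M cells fell at 8 of 9 genes, among them Ccl20 (-1.26), Pglyrp1 (-1.23), Marcksl1 (-1.14) and Tnfaip2 (-0.95). None of the 9 further lists had a called gene between genotypes by limma, and 4 of their 104 measured genes had an unadjusted p under 0.05.

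Other lymphocyte genes moved with them. Plasma cell genes fell at 5 of 8, with Jchain, the joining chain of secreted IgA, at -3.23 and Mzb1 at -1.68. Among these 5, Irf4 passed the filter on dim signals through CHOW alone, so its direction was fixed. T cell and intraepithelial lymphocyte genes fell at 13 of 16, with Cd5 at -2.27, Gzma at -2.17, Gzmb at -1.80 and Cd8a at -1.76, while Cd4 rose (0.62). The median of the T cell list, as a deviation from the CHOW mean, ran from -0.89 to 0.46 on CHOW, from -1.84 to -1.12 on HFD and from -1.73 to -1.01 in iPGC1a-/- mice, so that it did not overlap between diets. CHOW replicate 1 and HFD replicate 5, highest for most B cell genes that fell, also had the highest T cell medians of their groups (0.46 and -1.12). By contrast, CHOW replicate 2, lowest for most of those genes, had a T cell median of 0.35. In iPGC1a-/- replicate 1, highest for most of them, it was -1.36, inside the range of its group. Macrophage and dendritic cell genes fell at 1 of 9 (Itgax, -0.82), the epithelial list rose at 1 of 12 (Alpi, 0.90) and 0 of 9 genes of smooth muscle, fibroblasts and endothelium were called by limma. The epithelial medians stayed between -0.17 and 0.19 on all 18 arrays, and the smooth muscle median reached 1.03 on HFD replicate 1. The part of a changed mixture of cells in the B cell result was not tested.

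**Figure D5:**
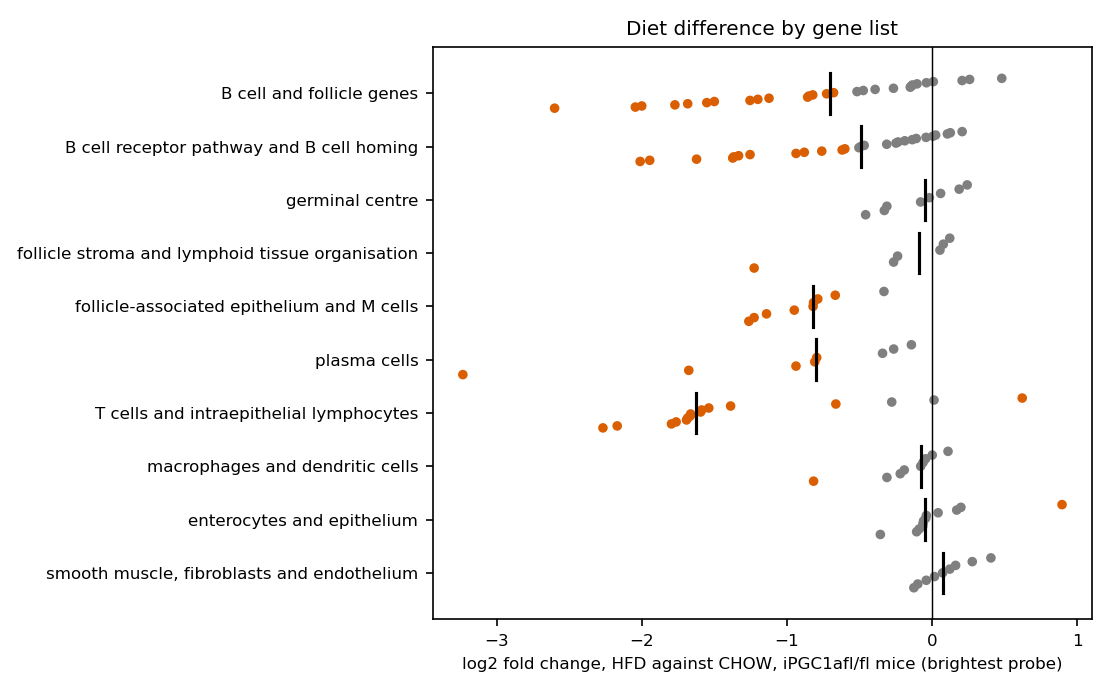
Each point is the log2 fold change of 1 gene, HFD against CHOW in iPGC1afl/fl mice (brightest probe), for the 28 B cell and follicle genes and 9 further lists; orange marks called genes and the black bar the median of a list. The B cell, M cell, plasma cell and T cell rows lie mostly left of 0, and the epithelial and smooth muscle rows lie around it.

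The promoters of the genes were read for words known from B cell regulation, because many of these genes moved together. RefSeq windows of 250 bases before the annotated start (GRCm38.p6) were found for 24 of the 30 genes, in 28 windows. The octamer ATGCAAAT, a word read by Oct factors and their coactivator Pou2af1, was searched on both strands. It lay in 2 of 16 windows of genes that fell, Blnk and Vpreb3, and in 0 of 12 windows of the others. Of all 32851 windows 1.601% held it, and the 16 windows belong to 13 genes. The purine-rich word GAGGAAGT is of the kind read by the Ets factors PU.1 and Spi-B. It lay in 2 of 16 windows of genes that fell, Cd72 and Fcrl1, and in 1 of 12 of the others, Cd37, against 2.441% of all windows. Cd37 is among the others by its brightest probe, although 2 dimmer probes were called lower, and Fcrl1 passed the filter through CHOW alone. The palindromic word CCCNNGGG of Ebf1 lay in the window of Bank1 among genes that fell (1 of 16 windows). Among the others it lay in those of Cd22 and Spib (2 of 12), against 11.817% of all windows. The words are matches of letters and not measured binding sites. The 4 windows of fallen genes with an octamer or a purine-rich word are shown with the word in capitals, which reads as its reverse complement where it lies on the other strand.
Vpreb3 promoter, chr10:75948050-75948299, plus strand: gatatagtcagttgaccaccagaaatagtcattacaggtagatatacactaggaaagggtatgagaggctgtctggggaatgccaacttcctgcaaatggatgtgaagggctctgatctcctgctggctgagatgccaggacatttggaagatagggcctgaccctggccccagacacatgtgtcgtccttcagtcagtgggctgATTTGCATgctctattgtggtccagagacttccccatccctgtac
Blnk promoter, chr19:40994222-40994471, minus strand: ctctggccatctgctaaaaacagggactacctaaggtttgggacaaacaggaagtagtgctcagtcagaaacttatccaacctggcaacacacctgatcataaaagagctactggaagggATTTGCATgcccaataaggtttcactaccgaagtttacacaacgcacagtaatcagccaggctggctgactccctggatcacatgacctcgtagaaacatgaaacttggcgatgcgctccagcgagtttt
Cd72 promoter, chr4:43454627-43454876, minus strand: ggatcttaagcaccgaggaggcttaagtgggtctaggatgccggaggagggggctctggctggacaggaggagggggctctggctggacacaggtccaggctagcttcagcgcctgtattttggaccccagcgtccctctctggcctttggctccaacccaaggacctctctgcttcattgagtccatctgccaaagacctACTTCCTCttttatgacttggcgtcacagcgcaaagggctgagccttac
Fcrl1 promoter, chr3:87376137-87376386, plus strand: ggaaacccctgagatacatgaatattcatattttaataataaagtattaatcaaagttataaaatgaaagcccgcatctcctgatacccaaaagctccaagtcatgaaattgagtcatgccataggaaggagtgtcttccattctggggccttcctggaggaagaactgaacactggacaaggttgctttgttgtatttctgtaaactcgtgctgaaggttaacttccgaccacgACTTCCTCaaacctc
In these windows the octamer starts 45 bases before the annotated start of Vpreb3 and 130 before that of Blnk, and the purine-rich word 49 bases before that of Cd72 and 15 before that of Fcrl1. Vpreb3 fell by 1.68 and Blnk by 1.12 on the log2 scale, while no window was found for Cd79b, Ms4a1, Ikzf3, Cd83, Cd40 and Blk.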

How the data were processed

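RNA of ileum cells from 18 mice was hybridised in 1 colour (Cy3) to Agilent SurePrint G3 mouse arrays, 1 array per mouse. The spot intensity values were deposited as scanner output of Agilent Feature Extraction 10.10.1.1, per the submitters' processing notes, with coordinates on mm9 per the file headers. The authors also deposited a table of log2 values, which per their methods were filtered median signals corrected for washing bath and labelling serial and normalized with qsmooth. That table served as an alternative here, and its batch correction could not be repeated.

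Control and outlier spots (46 to 153 an array) were dropped, spots of a probe averaged, and 32726 of 56605 probes kept for which some group had 5 or all of its 6 arrays well above background. The log2 median signals were normalized with a re-implementation of qsmooth (window 0.05). One limma 3.58.1 model in R 4.3.3 covered the 3 groups, with Benjamini-Hochberg adjustment over all kept probes. A gene took its brightest probe and was called at adjusted p of 0.05 or lower with a fold change above 1.5. Exact permutation tests were two-sided. The scripts were tested on simulated data. Genes described in full were those called, plus Cd79a, Cd79b, Ms4a1, Cd22, Pax5 and Cd37, and at most 4 called genes of another list, those with the largest change, less 1 that is not reported here. The B cell genes, the 9 further lists and these rules were chosen with earlier results of these data known. All 30 gene names matched symbols in RefSeq's GRCm38.p6 table. Probe sequences came from the scanner files and promoters from RefSeq. The alternatives were other signals, scalings, filters, probe choices, call rules and blocks, and leaving out each array. The number of arrays and the signal over background limit the precision.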

Additional observations from a re-analysis of the deposited data

Results flagged for a closer look

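Each of the 28 measured genes was checked for a mouse far from the rest of its group by Dixon's ratio, the gap to the nearest mouse divided by the range of the group. Of 84 groups of 6 mice, 3 held such a mouse, where chance gives about 1 in 20. Blnk in the iPGC1afl/fl CHOW group had a ratio of 0.683: replicate 2 was lowest at 10.61, with the nearest mouse at 11.38. Bcl6 in the iPGC1afl/fl HFD group had a ratio of 0.694, with replicate 4 lowest at 9.91 and the nearest mouse at 10.23. Ebf1 in the iPGC1a-/- HFD group had a ratio of 0.698, with replicate 1 highest at 6.24 and the nearest mouse at 5.54. The same CHOW replicate 2 was lowest in 13 of the 15 genes that fell with diet and iPGC1a-/- replicate 1 highest in 11.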

How the results depend on the processing

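Across 13 alternative settings, 5 to 19 of the measured B cell genes fell with diet, beside 3.06% to 14.2% of all gene names. The share of 14.2% came from adjusted p with no limit on fold change. With any 1 array left out 13 to 16 fell, beside 4.76% to 6.03% of all gene names. The low count of 5 came from the strict filter, which kept probes well above background on all 18 arrays and by its construction left 18 genes, with Ms4a1 at its dimmer probe (-0.01). Under it 4.57% of all gene names fell. The median log2 fold change was -0.15 under that filter and -1.05 with Agilent's processed signal set to each array's 75th percentile, and -0.82 to -0.60 with 1 array left out. Genes with no overlap between diets numbered 1 with normexp background correction, 1 with quantile normalization and 1 in the authors' values, where 4.56% to 4.81% of all gene names were lower without overlap. With 1 array left out they numbered 2 to 11 (5 without CHOW replicate 2 and 11 without HFD replicate 5), beside 5.12% to 7.23% of all gene names. Normexp ended the calls of Fcer2a, Fcrla, Fcrl1 and Bank1, and the cause was not tested. The mean over a gene's kept probes ended those of Fcer2a and Bcl11a and gave a call to Cd37 (-0.77). No called direction reversed. Between genotypes 0 genes were called by limma under every setting and with every array left out, and the median ran from 0.02 to 0.20. In the other lists 33 to 50 genes were called with diet. The labels do not say whether same-numbered mice were paired. Over 18 such pairs their deviations correlated at -0.22 to 0.35, with 9 above 0.1. Mice with different numbers were not compared in this way, so these values do not decide it. The replicate block left 15 genes called with diet and 0 with genotype. The slide as a block also left 15.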
